A study of Mus musculus with 32 samples.

Results

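The genes described here are 10 that the transcription factor p53 is known to switch on: Mdm2, Cdkn1a, Gadd45a, Ccng1, Bax, Bbc3, Phlda3, Trp53inp1, Sesn1 and Eda2r. They were taken by name, as known targets, with earlier results of these data known, and their values were read in the RNA of quadriceps muscle from 32 mice. All 10 are among the 53801 gene IDs listed for every library. Of the 10, 9 passed the filter on low values that a test across genes needed, which was at least 1 TPM in at least 4 libraries. The exception was Bbc3, which reached 1 TPM in 3 libraries and is described apart. TPM is an abundance of transcripts scaled for transcript length and for the total of the library.

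The study compared wild-type (WT) mice with mice homozygous for a knockout allele of Col6a2, Col6a2tm1(KOMP)Vlcg, written Col6a2-/- below. Col6a2 encodes one chain of collagen VI, which anchors muscle fibres in their surrounding matrix. The 8 groups were WT females, WT males, Col6a2-/- females and Col6a2-/- males at 5 weeks of age, and the same 4 kinds of mice at 25 weeks, with 4 mice and 4 libraries in each. The allele was made in C57BL/6N mice for a knockout repository and then crossed for 5 generations to C57BL/6J. All mice were bred from heterozygous parents, so WT and Col6a2-/- mice share that mixed background away from the allele. C57BL/6N DNA on the same chromosome close to the allele is inherited with it. Its part in a genotype difference cannot be told apart from that of the knockout. The allele is carried by all cells of the mouse from conception, not only by muscle or by adult tissue, and the labels name no treatment of any group.

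p53, encoded by Trp53, accumulates when cells meet DNA damage or other stress, and it binds DNA at a site made of a pair of like half-sites. Its targets stop the cell cycle, promote cell death, change metabolism and survival signalling, or shut p53 off again. In skeletal muscle several of these genes are also known to change with denervation, disuse or regeneration, and transcription factors other than p53 act on them. Among the genes below, Mdm2 encodes the ubiquitin ligase that marks p53 for breakdown. Cdkn1a encodes p21, an inhibitor of cyclin-dependent kinases. Gadd45a and Ccng1 (cyclin G1) respond to DNA damage and act on growth arrest. Bax and Bbc3 (PUMA) encode proteins of the BCL-2 family that open the mitochondrial path to cell death. Phlda3 encodes an inhibitor of the kinase Akt, Trp53inp1 a nuclear cofactor with a part in autophagy, and Sesn1 (sestrin 1) an inhibitor of mTORC1 signalling. Eda2r encodes a receptor for the ectodysplasin isoform EDA-A2 and signals to NF-kappaB.

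The promoters are shown so that the letters of the p53 site can be read in genes the results turn on or set apart. Windows of 300 bases, 250 before and 50 after each start, came from RefSeq on build GRCm38.p6. They were found for 9 of the 10 genes, Trp53inp1 being the exception, with 13 windows in all since Bbc3, Cdkn1a and Sesn1 have more than 1 start. Each was searched for the 10-letter p53 half-site consensus, which reads the same on both strands, so that a match counts once for both. A full site was counted where a pair of half-sites stood 0 to 13 bases apart. Of all 32851 mouse promoter windows of this length, 2745 (8.36%) hold a half-site and 24 (0.073%) hold a full site. Among the windows of the genes described here, 6 of 13 hold at least 1 half-site, and 1, that of Cdkn1a, holds a full site. The promoters of Cdkn1a, Mdm2, Ccng1 and Bax follow, with each half-site in capitals, and that of Eda2r, in which no half-site matched. Only the bases before the gene's listed span are printed, 5′ to 3′ on the gene's own strand.
Cdkn1a (chr17:29090729-29090978, plus strand): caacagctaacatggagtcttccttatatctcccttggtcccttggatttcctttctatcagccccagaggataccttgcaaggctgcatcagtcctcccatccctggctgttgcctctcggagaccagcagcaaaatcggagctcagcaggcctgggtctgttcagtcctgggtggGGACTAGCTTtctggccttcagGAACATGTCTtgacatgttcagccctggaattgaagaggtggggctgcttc
Mdm2 (chr10:117710759-117711008, minus strand): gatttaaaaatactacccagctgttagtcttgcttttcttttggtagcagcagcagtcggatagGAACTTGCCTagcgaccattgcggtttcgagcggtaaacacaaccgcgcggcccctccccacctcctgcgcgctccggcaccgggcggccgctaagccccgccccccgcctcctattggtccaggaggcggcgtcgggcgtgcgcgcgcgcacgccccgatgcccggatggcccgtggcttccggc
Ccng1 (chr11:40755312-40755536, minus strand): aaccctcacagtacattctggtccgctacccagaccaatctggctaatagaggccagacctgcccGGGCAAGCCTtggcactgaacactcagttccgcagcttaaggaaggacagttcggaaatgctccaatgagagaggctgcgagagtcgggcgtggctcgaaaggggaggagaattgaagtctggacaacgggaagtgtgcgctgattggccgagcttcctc
Bax (chr7:45466899-45467148, minus strand): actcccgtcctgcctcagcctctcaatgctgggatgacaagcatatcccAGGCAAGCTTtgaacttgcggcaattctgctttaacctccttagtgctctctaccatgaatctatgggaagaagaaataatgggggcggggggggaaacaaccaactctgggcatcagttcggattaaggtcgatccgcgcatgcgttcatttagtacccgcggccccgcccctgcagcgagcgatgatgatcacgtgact
Eda2r (chrX:97377217-97377459, minus strand): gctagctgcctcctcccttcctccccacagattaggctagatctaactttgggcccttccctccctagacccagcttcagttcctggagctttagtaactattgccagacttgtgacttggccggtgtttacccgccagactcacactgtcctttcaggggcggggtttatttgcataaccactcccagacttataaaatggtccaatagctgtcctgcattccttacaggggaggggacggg

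The half-sites of Cdkn1a begin 73 and 51 bases before its start, with 12 bases between them. Directly after the second of these stand the letters tgacatgttc. They miss the consensus at their first letter alone, so they were not counted as a half-site. The full site given for Cdkn1a is thus a pair of exact matches, and which of these letters p53 binds was not tested. Those of Mdm2, Ccng1 and Bax begin 186, 185 and 201 bases before theirs. Sesn1 has a half-site 173 bases before its second start, and Gadd45a has one 40 bases before its RefSeq start. The windows of Phlda3, Bbc3 (3 windows), the second start of Cdkn1a and the first start of Sesn1 held no match. The 2 starts of Cdkn1a are 2790 bases apart. A match describes letters in a window and is no measure of binding, and a window without one says nothing of sites elsewhere.

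In the deposited tables, whose build is GRCm38, Mdm2 (ENSMUSG00000020184) lies at chr10:117688875-117710758 on the minus strand and Cdkn1a (ENSMUSG00000023067) at chr17:29090979-29100722 on the plus strand. Gadd45a (ENSMUSG00000036390) lies at chr6:67035096-67037457, minus, and Ccng1 (ENSMUSG00000020326) at chr11:40748552-40755311, minus. Bax (ENSMUSG00000003873) lies at chr7:45461697-45466898, minus, and Bbc3 (ENSMUSG00000002083) at chr7:16308393-16318205, plus. Phlda3 (ENSMUSG00000041801) lies at chr1:135766119-135769136, plus, and Trp53inp1 (ENSMUSG00000028211) at chr4:11156431-11174379, plus. Sesn1 (ENSMUSG00000038332) lies at chr10:41809935-41908424, plus, and Eda2r (ENSMUSG00000034457) at chrX:97333840-97377216, minus. The use of strand in counting is not given in the sources used here, so reads of overlapping genes cannot be told apart. Gadd45a overlaps the antisense gene E230016M11Rik, listed at no more than 1.56 TPM. Sesn1 and Bax overlap 9930024M15Rik and Gm45808, listed at no more than 0.591 and 0.863 TPM, and Cdkn1a overlaps the antisense gene AC167363.2.

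The knockout was visible in the RNA: Col6a2 stood at 6.60 to 51.2 TPM in the 16 WT libraries and at no more than 0.171 TPM in the 16 Col6a2-/- libraries. Markers of muscle fibres summed to 21911 to 39813 TPM in every library, and all T and B cell markers stayed under 1 TPM. Libraries held 10399 to 12877 genes at 1 TPM or more. The ratio of coverage to FPKM, which serves only as a relative measure of depth, ran from 6.78 to 13.7. Its median was 11.12 in WT and 8.945 in Col6a2-/- mice at 5 weeks, and 7.585 and 8.44 at 25 weeks. The median number of genes at 1 TPM or more was 11294 and 11886 at 5 weeks, and 10812 and 11292 at 25 weeks. The part of these differences in the results below was not tested. Mitochondrial genes took 31.9 to 46.9% of TPM. The small RNA genes whose names begin with Rn7s, together called Rn7s below, took 20.8 to 30.5%. The mean read depth over Cdkn1a ran from 1.15 to 37.2 reads, over Ccng1 from 1349 to 3590 and over Bbc3 from 0.166 to 2.99, so that values of Bbc3 rest on few reads. The tables give no counts, so no counting interval is attached to a value. In whole tissue, a higher level can come from more cells that use a gene or from more RNA in each cell, and these cannot be told apart here.

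The first question is which of these genes differed by genotype in young mice. At 5 weeks, Cdkn1a, Eda2r and Gadd45a were 3.598 to 5.08 times as abundant in Col6a2-/- quadriceps as in WT, and no library of one genotype reached the range of the other. Mdm2, Bax and Phlda3 were higher by smaller amounts, 1.31 to 1.60 times, and their ranges overlapped. Ccng1, the most abundant of the genes, was at 304.8 TPM in WT and 298.6 TPM in Col6a2-/- mice. In all, 6 of the 9 tested genes passed the threshold, each of them higher, by limma at an adjusted p under 0.05 on log2(TPM + 1). Over all 12817 genes tested, 25.4% passed in either direction, 23.2% higher and 2.14% lower. The median change of the 9 was 0.49 on the log2(TPM + 1) scale, against 0.15 over all genes tested.

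**Figure D1:**
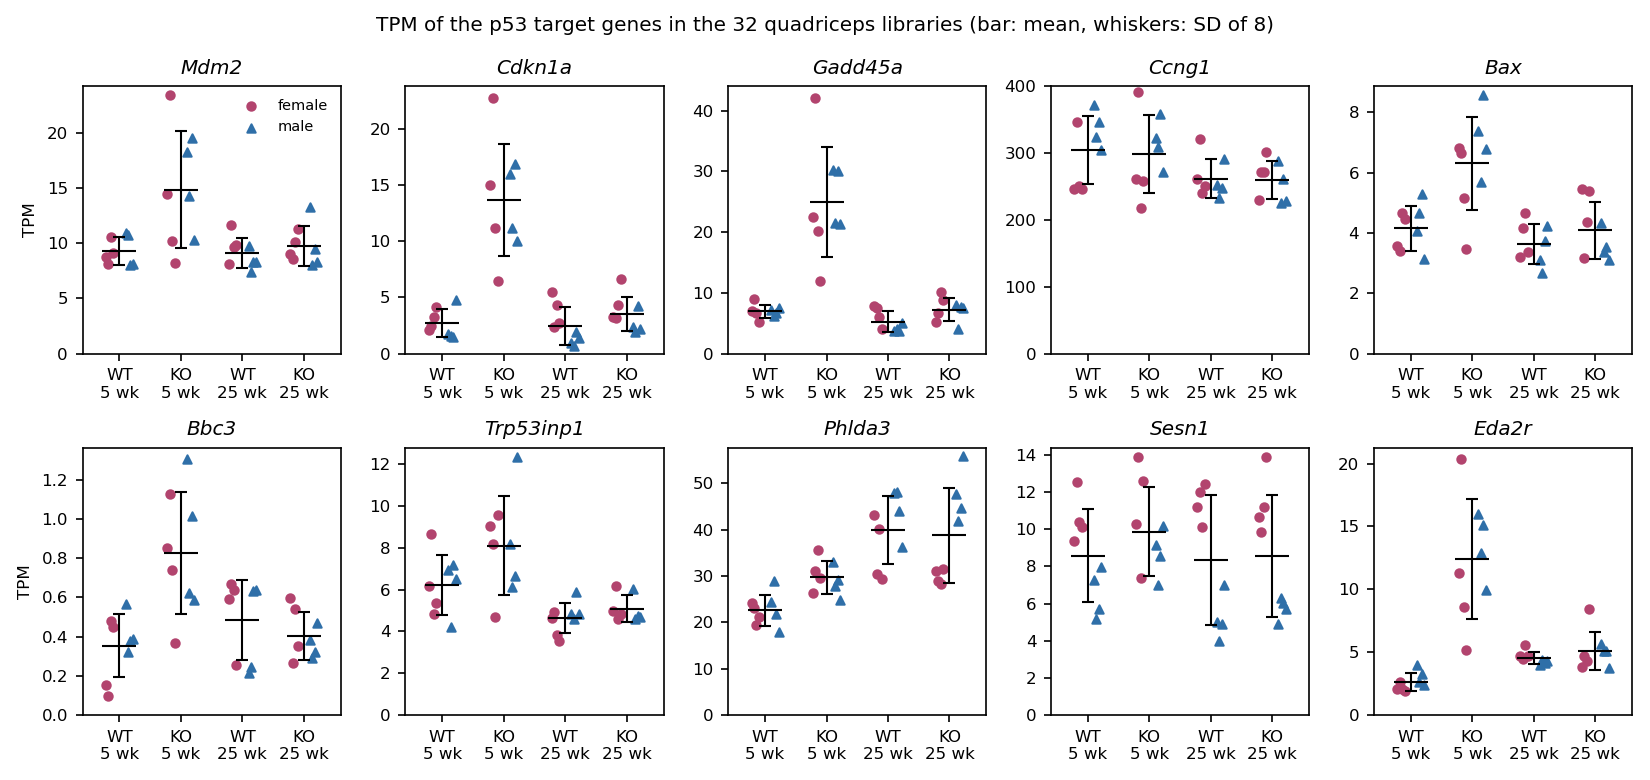
TPM of each of the 10 genes (vertical axis of each panel, starting at 0) in WT and Col6a2-/- quadriceps at 5 and 25 weeks. Circles are females, triangles are males, and the bar with its whiskers is the mean ± SD of 8 mice. In the panels of Cdkn1a, Gadd45a and Eda2r the 8 Col6a2-/- libraries of 5 weeks stand above all 8 WT libraries of that age.

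Mdm2, the gene of the feedback loop, was at 8.75, 8.06, 10.6 and 9.13 TPM in 5-week WT females (replicates 1 to 4) and at 10.9, 10.7, 7.97 and 8.10 TPM in WT males. Col6a2-/- females of that age had 14.5, 23.4, 10.2 and 8.15 TPM and Col6a2-/- males 18.2, 14.3, 19.6 and 10.2 TPM. WT libraries thus stayed within a narrow band, and 5 of the 8 Col6a2-/- libraries stood above all of them, while female 3, female 4 and male 4 lay inside it. The means were 9.27 ± 1.26 TPM in WT and 14.8 ± 5.28 TPM in Col6a2-/- mice (SD, n = 8 each). Mdm2 rose by 0.56 on the log2(TPM + 1) scale (SE 0.149, limma adjusted p = 0.00699), and by 0.36 with median-of-ratios factors.

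Among the genes of growth arrest, Cdkn1a was at 2.09, 2.45, 3.21 and 4.18 TPM in 5-week WT females and at 1.75, 1.59, 1.51 and 4.78 TPM in WT males. The Col6a2-/- females had 15.0, 22.8, 11.2 and 6.50 TPM and the males 15.98, 11.2, 16.9 and 10.1 TPM. Female 4, the lowest of the Col6a2-/- mice, still exceeded WT male 4, the highest of the WT mice. The mean was 2.70 ± 1.24 TPM in WT and 13.7 ± 5.02 TPM in Col6a2-/- mice, a rise of 1.98 (SE 0.213, 95% confidence interval 1.55 to 2.42, limma adjusted p = 1.1e-07). It ranked 20 by size among the 12817 genes.

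Gadd45a was at 7.06, 9.02, 6.72 and 5.16 TPM in WT females and at 7.14, 6.18, 6.75 and 7.51 TPM in WT males of 5 weeks. In Col6a2-/- mice the females had 22.5, 42.1, 20.2 and 12.0 TPM and the males 30.2, 21.6, 30.0 and 21.2 TPM. The lowest Col6a2-/- library, female 4, lay above the highest WT library, female 2, and the spread among Col6a2-/- females was wider than among males. Gadd45a went from 6.94 ± 1.10 TPM in WT to 25.0 ± 9.03 TPM in Col6a2-/- mice and ranked 38 by size, with a rise of 1.65 (SE 0.177, 95% confidence interval 1.28 to 2.01, limma adjusted p = 1.14e-07). Of its relatives, Gadd45b differed by -0.07 and Gadd45g by -0.16, and neither passed the threshold.

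Ccng1 did not pass the threshold. Its 5-week levels ran from 246 to 371 TPM in WT (median 314) and from 217 to 391.7 TPM in Col6a2-/- mice (median 290), so that the WT range lay wholly within the other. The difference was -0.03 (95% confidence interval -0.25 to 0.18, limma adjusted p = 0.822). With the libraries scaled by median-of-ratios factors it was -0.24 and passed the threshold (limma adjusted p = 0.0133).

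Bax, which permeabilises the outer mitochondrial membrane, was at 3.57, 3.42, 4.64 and 4.44 TPM in WT females and at 4.06, 4.67, 5.27 and 3.12 TPM in WT males of 5 weeks. Col6a2-/- females had 6.83, 6.63, 5.16 and 3.47 TPM and males 7.38, 5.69, 8.57 and 6.78 TPM. All libraries of Col6a2-/- males exceeded the WT range, whereas females 3 and 4 lay within it. Means of 4.15 ± 0.737 TPM in WT and 6.32 ± 1.54 TPM in Col6a2-/- mice gave a rise of 0.49 for Bax (SE 0.120, limma adjusted p = 0.00398), which was 0.31 with median-of-ratios factors.

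Bbc3 was close to the limit of what these libraries can show. It was at 0.151, 0.0980, 0.480 and 0.452 TPM in WT females and at 0.569, 0.321, 0.380 and 0.387 TPM in WT males of 5 weeks. Among Col6a2-/- mice the females had 0.852, 1.13, 0.741 and 0.369 TPM and the males 1.30, 0.623, 1.02 and 0.587 TPM. Only female 4 of the Col6a2-/- mice fell within the WT range. The mean was 0.355 ± 0.161 TPM in WT and 0.828 ± 0.310 TPM in Col6a2-/- mice, a difference of 0.42 on the log2(TPM + 1) scale and of 1.05 with a pseudocount of 0.1 in place of 1. An exact permutation of genotype within each sex gave p = 0.00286 (two-sided, 4900 splits), a value for this gene alone, not adjusted over genes.

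Phlda3 was at 24.2, 23.03, 19.5 and 21.2 TPM in WT females and at 24.4, 28.9, 21.9 and 17.8 TPM in WT males of 5 weeks. Col6a2-/- females had 26.4, 31.0, 35.7 and 29.5 TPM and males 33.1, 27.8, 29.1 and 24.9 TPM. Each Col6a2-/- library exceeded the WT mean of its sex, and the ranges overlapped between 24.9 and 28.9 TPM. The mean of Phlda3 was 22.6 ± 3.40 TPM in WT and 29.7 ± 3.54 TPM in Col6a2-/- mice, which is a rise of 0.38 (SE 0.0976, limma adjusted p = 0.00534). This call depended on the scaling: with median-of-ratios factors the difference was 0.18 (limma adjusted p = 0.23), and without the 100 most abundant genes in the total it was 0.25 (limma adjusted p = 0.0634).

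Trp53inp1 and Sesn1 did not pass the threshold at 5 weeks. Trp53inp1 ran from 4.21 to 8.65 TPM in WT (median 6.34) and from 4.67 to 12.4 TPM in Col6a2-/- mice (median 8.19), a difference of 0.31 (95% confidence interval 0.04 to 0.59, limma adjusted p = 0.0835). Sesn1 ran from 5.18 to 12.5 TPM in WT (median 8.68) and from 6.98 to 13.9 TPM in Col6a2-/- mice (median 9.68), a difference of 0.20 (95% confidence interval -0.03 to 0.43, limma adjusted p = 0.188). With median-of-ratios factors the differences were 0.13 for Trp53inp1 and 0.011 for Sesn1. Trp53inp1 passed with the replicate number as a block (limma adjusted p = 0.0355) and without some single libraries. Of the relatives of these genes, Sesn3 differed by 0.29 and Trp53inp2 by 0.16, neither past the threshold. Sesn2 was below the filter, at a mean of 0.353 TPM in WT and 0.4997 TPM in Col6a2-/- mice.

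Eda2r, the receptor gene, was at 2.10, 2.63, 2.07 and 1.88 TPM in WT females and at 4.002, 2.62, 3.26 and 2.40 TPM in WT males of 5 weeks. In Col6a2-/- mice the females had 11.3, 20.4, 8.55 and 5.18 TPM and the males 15.97, 12.9, 15.1 and 9.94 TPM. The lowest Col6a2-/- library, again female 4, lay above the highest WT library, male 1. With means of 2.62 ± 0.707 TPM in WT and 12.4 ± 4.75 TPM in Col6a2-/- mice, Eda2r rose by 1.83 (SE 0.164, 95% confidence interval 1.49 to 2.16, limma adjusted p = 3.91e-09) and ranked 29 by size.

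The genes whose ranges did not overlap at 5 weeks were thus 3 of the 9 tested, and the Col6a2-/- libraries stood wholly above WT for 1.18% of all genes tested. The same 3 were the ones that at least doubled and passed the threshold, as did 1.11% of all genes. Since the median of all genes was itself above 0, the changes were also taken relative to it. Cdkn1a then stood 1.84 above the median gene, Eda2r 1.68, Gadd45a 1.5, Mdm2 0.42, Bax 0.34, Phlda3 0.24, Trp53inp1 0.17 and Sesn1 0.05, and Ccng1 stood at -0.18. Under the other scalings the median of all genes ran from -0.02 to 0.14. The share of called genes that were higher, 91.6% as deposited, was 47.9% with median-of-ratios factors, 92.4% without mitochondrial genes and Rn7s, 65.3% without the 100 most abundant genes, 45.8% after quantile normalisation and 45.4% after correction for GC content and length. The rises of Cdkn1a, Eda2r, Gadd45a, Mdm2 and Bax passed the threshold under each of these scalings.

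**Figure D2:**
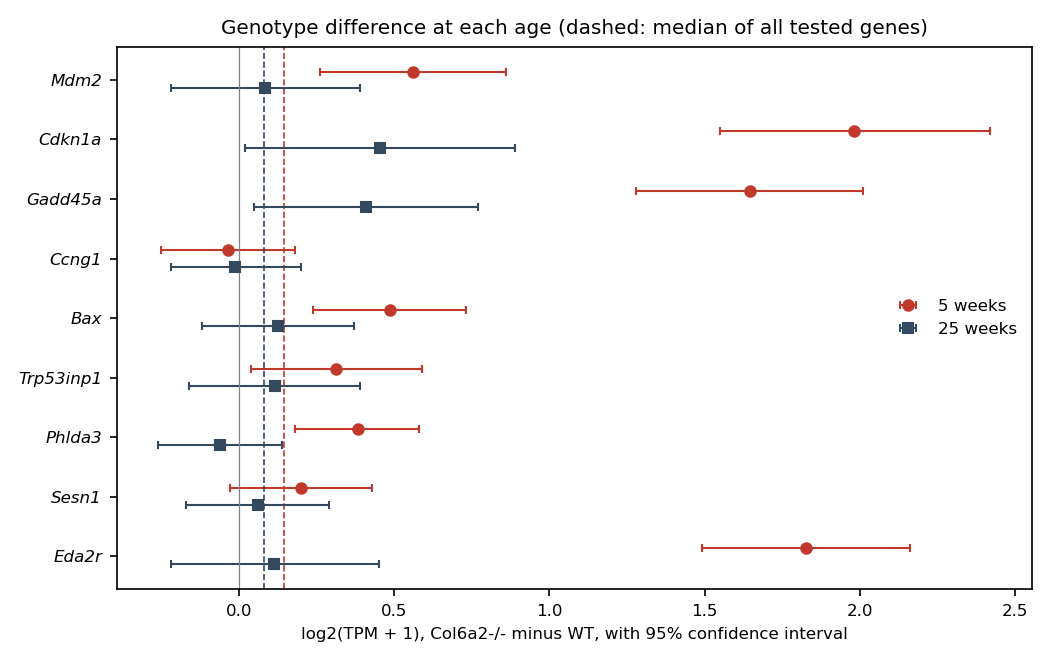
Difference of Col6a2-/- from WT on the log2(TPM + 1) scale (horizontal axis) for the 9 tested genes at 5 and at 25 weeks, with 95% confidence intervals from limma. Dashed lines mark the median of all 12817 genes at each age, 0.15 and 0.08. At 5 weeks Cdkn1a, Eda2r and Gadd45a lie between 1.65 and 1.98, and at 25 weeks all 9 genes lie between -0.06 and 0.45.

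The 5-week Col6a2-/- mice also differed among themselves, and several genes did so together. Taken against the WT mean of the same sex, Cdkn1a stood between 0.94 in female 4 and 2.61 in female 2, Eda2r between 0.97 and 2.76 in the same mice, and Gadd45a between 0.72 and 2.45. Mdm2 stood at -0.14 in female 4 and at 1.28 in female 2. Among males, replicate 4 was lowest for Cdkn1a, Mdm2, Gadd45a and Eda2r. Macrophage markers summed to 102.8 TPM in female 4 and to 356.7 TPM in female 2, the lowest and the highest of these 8 mice. Myh3, the embryonic myosin heavy chain gene, was at 5.63 TPM in female 4 and at 16.2 TPM in male 1, with female 2 at 15.8 TPM. Measures of the libraries moved with these as well: from female 2 to female 4 the ratio of coverage to FPKM was 7.45 and 13.69, genes at 1 TPM or more numbered 12877 and 10903, and mitochondrial genes took 33.14 and 42.96% of TPM. Male 4 likewise had the highest ratio (11.39), the fewest such genes (11552) and the highest mitochondrial share (42.36%) of the 4 males. The part of these other differences in the levels of Cdkn1a, Eda2r, Gadd45a and Mdm2 was not tested. Without Col6a2-/- females 2 and 4, an alternative chosen after seeing the data, 6 genes again passed the threshold, and the difference of Cdkn1a was 1.998, that of Eda2r 1.80, that of Gadd45a 1.62 and that of Mdm2 0.51.

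**Figure D3:**
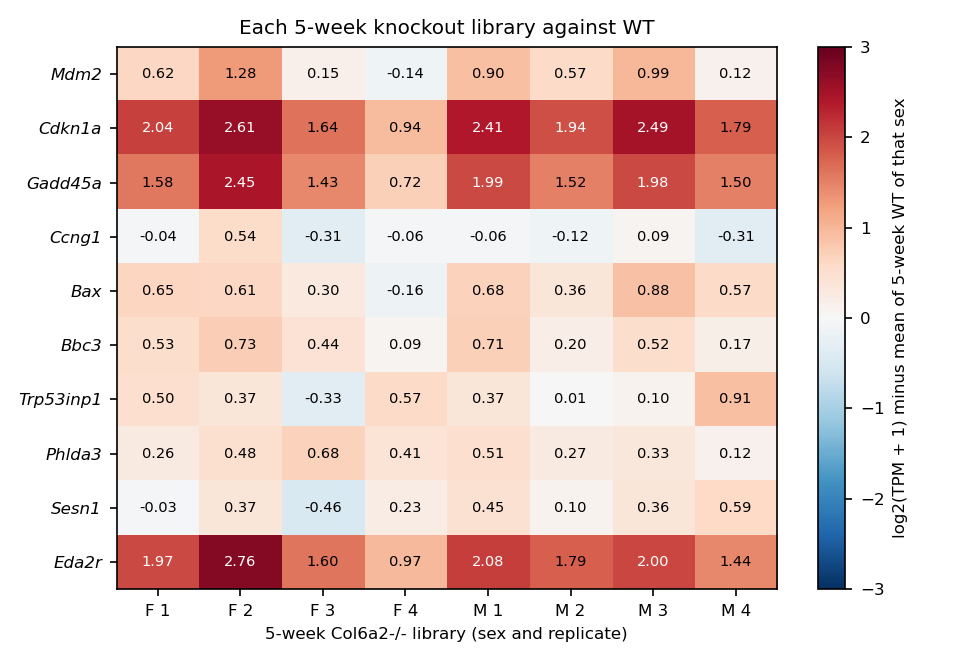
Level of each gene in each of the 8 Col6a2-/- libraries of 5 weeks, as the difference of log2(TPM + 1) from the mean of the 4 WT libraries of the same sex (colour scale and printed values). Columns are libraries and lines of the grid are genes. Female 2 is highest and female 4 lowest for Cdkn1a, Eda2r, Gadd45a and Mdm2.

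Across all 32 libraries Cdkn1a and Gadd45a had a Pearson r of 0.91, Gadd45a and Eda2r of 0.82, and Cdkn1a and Eda2r of 0.80, values that hold the group differences just described. With each group's mean removed, r among the 36 pairs of tested genes ran from -0.47 for Phlda3 and Sesn1 to 0.75 for Mdm2 and Eda2r. These are descriptions over 32 libraries that share one protocol and one scaling. Outside these genes, those most like Cdkn1a over the 32 libraries were Myh3 (r = 0.915), Myl4 (0.913), Sln (0.906), Gm14519 (0.893) and Oas2 (0.893). Those most like Eda2r were Rb1 (0.916), Ampd3 (0.909), Tgif1 (0.907), Mpeg1 (0.900) and Rrad (0.898). Those most like Mdm2 were Ddb1 (0.907), Mpp1 (0.902), Cpsf6 (0.897), Setdb1 (0.892) and Osbpl8 (0.892). The 3 sets had no gene in common, but each is only the top 5 of many closely spaced values. Over the same libraries Mdm2 had r = 0.73 with Cdkn1a and 0.79 with Eda2r.

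The same comparison in adult mice asks whether the differences were still seen. At 25 weeks none of the 9 tested genes passed the threshold (limma), and 2 of the 9, Cdkn1a and Gadd45a, had an unadjusted p under 0.05, as did 19.3% of all genes. Over all genes 4.7% passed the threshold. The median change of the 9 was 0.11, against 0.08 over all genes. No alternative processing called any of the 9 at this age.

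Cdkn1a at 25 weeks was at 5.50, 2.34, 4.32 and 2.75 TPM in WT females and at 0.930, 0.657, 1.95 and 1.36 TPM in WT males. Col6a2-/- females had 3.30, 3.15, 4.32 and 6.66 TPM and males 2.36, 1.96, 4.22 and 2.16 TPM. The ranges overlapped over both sexes and in females, and in males the highest WT library (1.95 TPM) and the lowest Col6a2-/- library (1.956 TPM) almost met. Over both sexes the difference was 0.45 (95% confidence interval 0.02 to 0.89, limma adjusted p = 0.239), with means of 2.48 ± 1.68 and 3.52 ± 1.55 TPM.

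Gadd45a was at 7.90, 7.46, 6.04 and 4.07 TPM in WT females and at 3.65, 4.06, 3.72 and 4.97 TPM in WT males of 25 weeks. Col6a2-/- females had 5.19, 6.66, 10.2 and 8.79 TPM and males 8.02, 4.03, 7.62 and 7.42 TPM. All but 3 of the 8 Col6a2-/- libraries lay inside the WT range. The difference was 0.41 (95% confidence interval 0.05 to 0.77, limma adjusted p = 0.196). Eda2r ran from 3.98 to 5.55 TPM in WT (median 4.43) and from 3.72 to 8.41 TPM in Col6a2-/- mice (median 4.90), a difference of 0.11 (95% confidence interval -0.22 to 0.45, limma adjusted p = 0.754).

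The remaining genes did not pass the threshold at 25 weeks either. Mdm2 differed by 0.08 (limma adjusted p = 0.8), Bax by 0.12 (0.611), Trp53inp1 by 0.12 (0.683), Sesn1 by 0.06, Ccng1 by -0.01 (0.963) and Phlda3 by -0.06 (0.781). The signs for Mdm2 and Sesn1 turned under some scalings. Bbc3 was at 0.485 ± 0.205 TPM in WT and 0.402 ± 0.122 TPM in Col6a2-/- mice, a difference of -0.07 (exact permutation within sex, two-sided p = 0.388).

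Whether the genotype difference itself changed with age was tested as an interaction. For 3 of the 9 genes the difference was smaller at 25 than at 5 weeks, while over all genes 0.421% passed in that direction and 0.492% in either. The same direction passed for 5 of 11 tested denervation and regeneration genes (6 to 7 under the other scalings), Myh3 (-1.63), Chrng (-1.34), Myog (-1.24), Chrnd (-1.13) and Musk (-0.70), whose part in the result was not tested. None passed as deposited among 12 tested genes for p53 and its regulators or 13 further CDK inhibitors and growth arrest genes. Under each of the other scalings 2 genes of each of these lists passed in this direction, where at most 163 of all genes passed in either. The interaction was -1.71 for Eda2r (SE 0.231, limma adjusted p = 4.24e-05), -1.53 for Cdkn1a (SE 0.301, limma adjusted p = 0.00801) and -1.24 for Gadd45a (SE 0.250, limma adjusted p = 0.0112). For Mdm2 it was -0.48 (adjusted p = 0.618), for Phlda3 -0.44 (0.232) and for Bax -0.36 (0.673), none past the threshold, so that their loss of a call between the ages is not shown to be a change. For Cdkn1a the adjusted p was 0.0507 with the replicate number as a block.

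The change with age within each genotype uses the same libraries again and so is no separate evidence. From 5 to 25 weeks, 2 of the 9 genes rose in WT, where 4.47% of all genes rose, 15.3% fell and 19.8% changed in either direction. Phlda3 went from 22.6 to 39.9 TPM, a rise of 0.78 (SE 0.0976, limma adjusted p = 1.08e-06). All 8 WT libraries of 25 weeks, at 29.4 to 48.2 TPM, exceeded the 5-week maximum of 28.9 TPM. Eda2r went from 2.62 to 4.53 TPM, a rise of 0.63 (SE 0.164, limma adjusted p = 0.00674), and 5-week male 1 was the one young WT library that reached the later range. Gadd45a differed by -0.38 (limma adjusted p = 0.134), Trp53inp1 by -0.35 (0.0684) and Ccng1 by -0.21 (0.164), none past the threshold. Gadd45a passed under 2 of 12 processing alternatives (limma adjusted p down to 0.0227) and Trp53inp1 under 1 (0.0338). Trp53inp1 also passed in 4 of 32 fits without 1 library (limma adjusted p down to 0.0256). Without mitochondrial genes and Rn7s the differences were -0.27 for Gadd45a and -0.23 for Trp53inp1.

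In Col6a2-/- mice 7 of the 9 genes changed between the ages, where 34.2% of all genes did. Cdkn1a fell by 1.69 (limma adjusted p = 6.19e-07), Gadd45a by 1.62 (6.45e-08) and Eda2r by 1.08 (1.04e-05). Trp53inp1 fell by 0.54 (limma adjusted p = 0.00254), Bax by 0.51 (0.00153) and Mdm2 by 0.50 (0.0101), and 28.8% of all genes fell. With only the groups compared in the fit Mdm2 missed the threshold (limma adjusted p = 0.0509), and its difference was -0.32 with median-of-ratios factors, while that of Bax was -0.29 after correction for GC content and length, both past the threshold. Phlda3 rose by 0.34 (limma adjusted p = 0.00803), as did 5.41% of all genes, and differed by 0.56 after correction for GC content and length. All Col6a2-/- libraries of 25 weeks had less Gadd45a, at 4.03 to 10.2 TPM, than any of 5 weeks, at 12.0 TPM or more. Phlda3 was thus the one gene of the 9 that rose with age in both genotypes. Between the same ages of Col6a2-/- mice 8 of 9 macrophage markers, 8 of 11 denervation and regeneration genes and 17 of 19 proliferation genes fell as well, and their part in these changes was not tested.

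Sex was compared over both genotypes and ages. Of the 9 genes, 1 passed the threshold, where 3.05% of all genes did, 1.87% higher and 1.18% lower in males. Sesn1 was at 11.1 ± 1.72 TPM in the 16 females and 6.56 ± 1.74 TPM in the 16 males, and was lower in males by 0.70 (difference -0.70, SE 0.0792, limma adjusted p = 4.92e-07). Females of 25 weeks were at 9.86 to 13.9 TPM and males of that age at 3.98 to 7.01 TPM, without overlap, whereas at 5 weeks the sexes overlapped, with females at 7.38 to 13.9 TPM and males at 5.18 to 10.2 TPM. Cdkn1a differed by -0.46 (limma adjusted p = 0.105) and Phlda3 by 0.23 (0.0678), males minus females, neither past the threshold. Cdkn1a passed under 4 of 11 processing alternatives (limma adjusted p down to 0.0256) and Phlda3 under 2 (down to 0.0295). Of 32 fits without 1 library, Cdkn1a passed in 2 (limma adjusted p down to 0.0316) and Phlda3 in 5 (down to 0.0251).

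Within each sex at 5 weeks, Cdkn1a, Eda2r and Gadd45a were higher in Col6a2-/- mice in both. In females 4 of the 9 genes passed, against 12.9% of all genes: Cdkn1a by 1.81, Eda2r by 1.82, Gadd45a by 1.55 and Phlda3 by 0.46 (limma adjusted p = 0.0293). In males 4 passed, against 5.03% of all genes: Cdkn1a by 2.16, Eda2r by 1.83, Gadd45a by 1.74 and Bax by 0.62 (limma adjusted p = 0.0267). The call of Phlda3 in females was lost under 8 of 13 processing alternatives, with an adjusted p of up to 0.362 and a difference of down to 0.22, and that of Bax in males under 1 (replicate block, 0.0665). Mdm2 in males passed under 6 of 13, with an adjusted p of down to 0.0127, and without Col6a2-/- female 2, female 4 or male 4 (0.0197, 0.0362 and 0.0176). Single libraries also moved these calls. Without WT female 3, WT female 4, Col6a2-/- female 2 or Col6a2-/- female 3, Phlda3 had an adjusted p of 0.088, 0.0587, 0.0958 and 0.0869. Without WT male 1, WT male 4, Col6a2-/- male 1 or Col6a2-/- male 3, Bax had an adjusted p of 0.0546, 0.127, 0.0884 and 0.106. Without Col6a2-/- female 4, Mdm2 and Bax also passed in females, at 0.0145 and 0.0179. The interaction of genotype with sex passed for none of the 9 genes (limma) and for 0.0156% of all genes, so no difference between the sexes was shown. None of the 9 had an unadjusted p under 0.05 there (limma), against 1.61% of all genes. At 25 weeks none of the 9 passed in females or in males (limma), where 0.0078% and 3.03% of all genes did. At an unadjusted p under 0.05 (limma) there were 0 of the 9 in females and 2 in males, against 4.85% and 19.8% of all genes.

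Genes of the surrounding pathways were read from lists chosen by their known roles. Trp53 itself did not pass the threshold at 5 weeks, at 3.39 TPM in WT and 4.29 TPM in Col6a2-/- mice (difference 0.24, limma adjusted p = 0.195). Of 12 tested genes for p53 and its regulators, 4 rose and none fell, where 23.2% of all genes rose and 2.14% fell, the background for each count of these lists at 5 weeks. Under the other scalings 11 to 22% of all genes rose and 1.81 to 13.6% fell, which is the background of the ranges given for them. The median was 0.18 against 0.15 over all genes, and 2 to 3 rose under the other scalings. The 4 were Mdm4, a partner of MDM2 that restrains p53 (0.80, from 8.97 to 17.0 TPM), Trp63, a relative of Trp53 (0.58), Trp53bp1 (0.40) and the damage kinase gene Atr (0.29).

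Among 21 tested other targets of p53, 9 rose and 1 fell, against 23.2% and 2.14% of all genes, with a median of 0.15, the same as over all genes. Under the other scalings 5 to 8 rose and 1 to 3 fell. Those that rose were Apaf1, Ckap2, Fas, Ninj1, Perp, Plk2, Pml, Ppm1d and Pvt1. Fas, a death receptor gene, rose by 0.58, from 2.60 to 4.44 TPM. Tigar, whose product lowers glycolysis, fell by 0.50, from 12.2 to 8.28 TPM. The list held 31 targets, and those not tested were below the filter. In a fit without the filter, where 3695 of all genes passed in either direction, Pmaip1, Zfp365 and Gdf15 were higher and passed (limma). Lif, Pidd1, Plk3, Psrc1, Ptprv, Sesn2 and Tnfrsf10b did not pass there. Pmaip1 was at a mean of 0.0596 TPM in WT and 0.295 TPM in Col6a2-/- mice, levels that rest on few reads.

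Of 13 tested further CDK inhibitors and growth arrest genes, 5 rose, against 23.2% of all genes, and none fell (median 0.25, and 3 to 5 rose under the other scalings). Cdkn1c, which encodes the CDK inhibitor p57, rose by 0.97, from 17.0 to 35.4 TPM, and Rb1, the retinoblastoma gene, by 0.92. Btg1, Rbl1 and Cdkn2d rose by 0.70, 0.30 and 0.22, and Cdkn1b, which encodes p27, differed by -0.10 without passing the threshold. Of 19 tested proliferation genes, 12 rose, against 23.2% of all genes, and none fell (median 0.40, and 8 to 12 rose and 0 to 1 fell under the other scalings). Within the sexes, 9 of the 19 rose in females, where 12.3% of all genes did, and 1 in males, where 4.55% did, with 6 to 8 and 1 to 4 under the other scalings. None of the 19 passed the interaction of genotype with sex (limma, 0 at an unadjusted p under 0.05, against 1.61% of all genes). Top2a, the topoisomerase of dividing cells, rose by 0.77, from 2.61 to 5.07 TPM, and Mki67 by 0.75.

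Of 14 tested genes of the BCL-2 family and caspases, 6 rose, against 23.2% of all genes, and none fell (median 0.30, and 2 to 5 rose under the other scalings). Casp8 rose by 0.58 and Bak1, the partner of Bax, by 0.39, the latter with a call under 2 of the 5 other scalings. The genes of the survival proteins, Bcl2 and Bcl2l1, differed by -0.00 and 0.31 (limma adjusted p = 0.168 for Bcl2l1) and did not pass. Of the genes below the filter, Bid and Bik were higher and passed in the fit without it (limma), and Hrk did not pass. Of 7 tested genes of the pathway of Eda2r, 3 rose, against 23.2% of all genes, and none fell (median 0.29, and 2 to 3 rose under the other scalings). These were Nfkb2 (0.74, from 1.91 to 3.90 TPM), Map3k14 (0.39) and Relb (0.34), the NF-kappaB subunits and the kinase of its noncanonical branch. The ligand gene Eda differed by 0.19 (limma adjusted p = 0.0647).

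Denervation and regeneration genes moved with these. Of 11 tested, 10 rose, against 23.2% of all genes, and none fell (median 1.28, and 9 to 10 rose and 0 to 1 fell under the other scalings), Myh3 the most, by 2.37, from 1.47 to 12.3 TPM. Macrophage markers were all higher, 9 of 9 at 5 weeks (median 1.33) and 9 of 9 at 25 weeks (median 0.74, where 4.47% of all genes were higher), with 8 to 9 under the other scalings. Within each sex 8 of 9 passed at 5 weeks, where 12.3% of all genes were higher in females and 4.55% in males. At 25 weeks 0 passed in females, where 0 of all genes were higher, and 5 in males, where 2.91% were. Against 4.85% of all genes in females and 19.8% in males, 8 and 9 of the 9 markers had an unadjusted p under 0.05 (limma). Their sum ran from 63.1 to 105.8 TPM in WT and from 102.8 to 357 TPM in Col6a2-/- libraries at 5 weeks, and from 43.4 to 119 and from 113 to 211 TPM at 25 weeks. Fibroblast markers were higher for 3 of 6 genes at each age (2 to 3 under the other scalings), against 23.2% and 4.47% of all genes. At 5 weeks endothelial markers were higher for 2 of 4 genes (0 to 1 under the other scalings), satellite cell markers for 1 of 2 tested (0 to 1), and fibre markers lower for 3 of 7 (1 to 5). At 25 weeks none of the 7 fibre markers passed as deposited (limma), and 0 to 4 were lower under the other scalings. Their median was -0.21 at 5 weeks and -0.19 at 25 weeks. None of the 14 markers of adipocytes, tenocytes, Schwann cells or erythrocytes passed the threshold at either age (limma). At an unadjusted p under 0.05 (limma) there were 0 at 5 weeks and 1 at 25 weeks, against 38.7% and 19.3% of all genes. The part of these cell types in the levels of Cdkn1a, Eda2r, Gadd45a and the other targets was not tested.

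**Figure D4:**
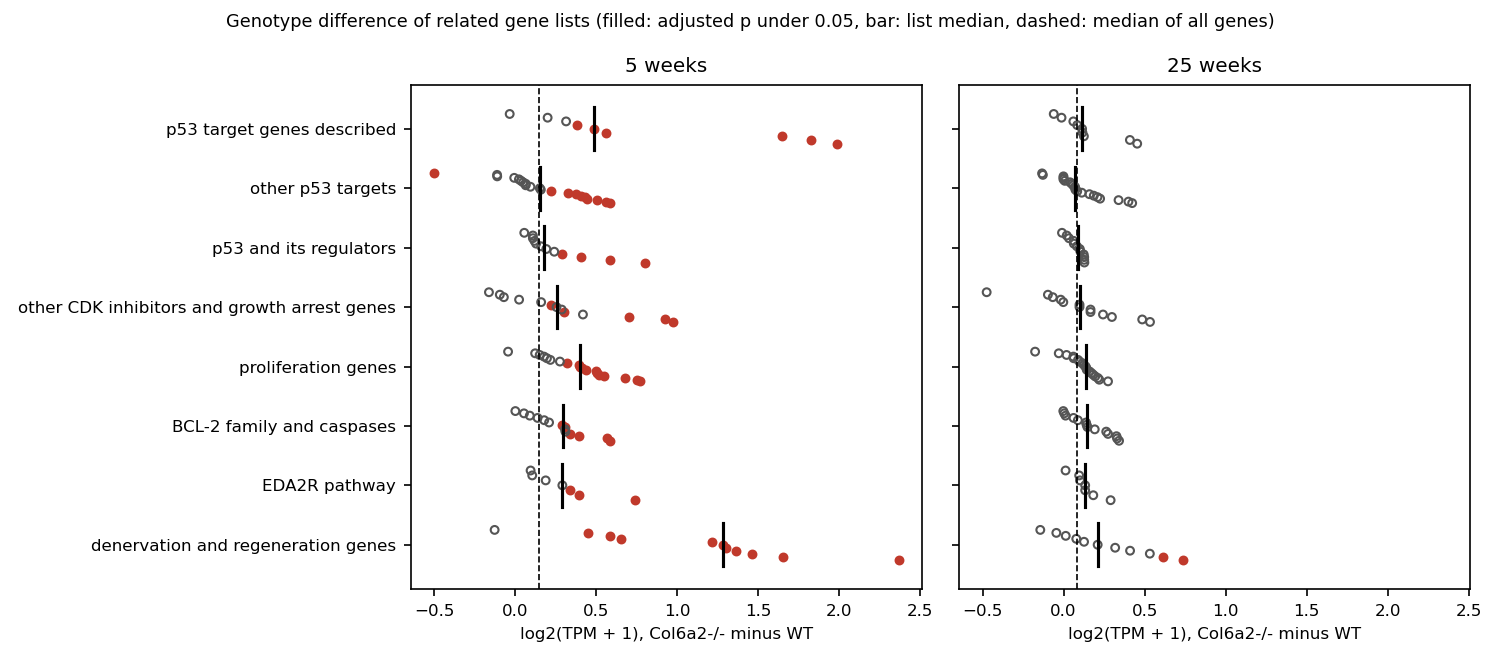
Difference of Col6a2-/- from WT on the log2(TPM + 1) scale (one axis, in both panels) for each tested gene of each list at 5 and 25 weeks. Filled points passed the threshold, bars mark the median of a list and dashed lines the median of all genes. At 5 weeks the list of denervation and regeneration genes has a median of 1.28 and that of further p53 targets a median of 0.15.

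At 25 weeks the pathway lists held hardly any calls. None passed among the other p53 targets, p53 and its regulators, the further CDK inhibitors, the proliferation genes, the BCL-2 family and caspases, or the pathway of Eda2r (limma), where 4.7% of all genes passed. At an unadjusted p under 0.05 they held 13 of 86 genes, against 19.3% of all genes. Under the other scalings at most 1 gene of each of these lists passed, Nfkb2 under 3 of the 5. Among denervation and regeneration genes 2 of 11 rose, Myh3 by 0.74 (limma adjusted p = 0.00752) and Runx1 by 0.62 (limma adjusted p = 0.0091).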

How the data were processed

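RNA of quadriceps cryosections from 32 mice was sequenced, 1 library per mouse. Per the labels' protocols, RNA passed a limit on its integrity, libraries were made with an Illumina TruSeq RNA kit and sequenced in pairs of 150 bases. Per the submitters' processing notes, FastQC, MultiQC, Trimmomatic, HISAT2, SAMtools and StringTie were used with build GRCm38 (mm10); their parameters, the strand setting and the annotation are not given in the sources used here. Per the file headers, the deposited tables give coverage (mean read depth of a gene, not scaled), FPKM and TPM per gene. The FPKM and TPM values were scaled by the authors for length and library total, mitochondrial genes and Rn7s included. Of the 53801 gene IDs, 53620 matched GENCODE M21. The highest correlation between libraries was 0.984, so none was counted as a repeat. The design had allowed for counts, and its branch for normalised values was used.

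TPM was summed per gene ID, and log2(TPM + 1) was tested for the 12817 genes that reached 1 TPM in 4 or more libraries, since the files hold no counts. A fold change on this scale understates changes of low genes. One limma 3.58.1 model in R 4.3.3 gave each of the 8 groups a mean and tested 11 comparisons, each adjusted over all tested genes (Benjamini-Hochberg, threshold 0.05). These were the genotype difference at 5 and at 25 weeks, over both sexes and within each, its interactions with age and with sex, the age difference within WT and within Col6a2-/- mice, and the sex difference. Bbc3 was tested by exact permutation. The text names all 10 targets, the 5 genes most like each of Cdkn1a, Mdm2 and Eda2r, the called gene with the largest change per list, direction and age, and direct partners of the targets; other list genes, such as those called beside them, were named after their values were seen. The targets and lists were chosen with earlier results of these data known. Alternatives changed the pseudocount, filter, scaling, variance trend, samples in the fit, and GC content and length correction, added a replicate block, and left out libraries; Col6a2-/- females 2 and 4 were left out together after seeing the data. The functions were tested on simulated data. Tables and figures used Python 3.11.15, numpy 2.4.6, pandas 2.3.3 and matplotlib 3.10.9. Replicates are 4 separate mice per group. Same-numbered libraries were not treated as paired, since 8 of 16 same-numbered pairs, not all, deviated together.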

Additional observations from a re-analysis of the deposited data

Results flagged for a closer look

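The genotype difference differed between the ages, by the test of the interaction itself, for 3 genes: Eda2r at -1.71, Cdkn1a at -1.53 and Gadd45a at -1.24 on the log2(TPM + 1) scale. In each the difference was larger at 5 than at 25 weeks. With the replicate number as a block, Cdkn1a missed the threshold (limma adjusted p = 0.0507).

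Within the groups of 4 mice, 1 library stood far from the other 3 in 4 of the 80 combinations of gene and group examined, which is 1 in 20. How many such cases chance would give was not tested. Cdkn1a was at 4.78 TPM in WT male 4 of 5 weeks, the other 3 lying between 1.51 and 1.75 TPM. Ccng1 was at 347 TPM in WT female 2 of 5 weeks, the others lying between 246 and 251 TPM. Trp53inp1 was at 6.05 TPM in Col6a2-/- male 1 of 25 weeks, the others lying between 4.61 and 4.75 TPM. Gadd45a was at 4.03 TPM in Col6a2-/- male 2 of 25 weeks, the others lying between 7.42 and 8.02 TPM.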

How the results depend on the processing

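At 5 weeks Cdkn1a (1.78 to 2.33), Eda2r (1.64 to 2.14), Gadd45a (1.45 to 1.77), Mdm2 (0.36 to 0.60) and Bax (0.31 to 0.57) passed the threshold under each alternative, as they did without each library in turn. Between 5 and 7 of the 9 genes passed under the alternatives, and 6 to 7 without 1 library. Phlda3 lost its call under 3 scalings, with 0.21 (limma adjusted p = 0.117) after correction for GC content and length. Trp53inp1 gained one without WT female 2 (0.0365), Col6a2-/- female 3 (0.0164) or male 2 (0.0471), and with the replicate block (0.0355). With median-of-ratios factors the 5-week difference of Trp53inp1 was 0.13 (limma adjusted p = 0.562) and that of Sesn1 0.011. At 25 weeks, where neither gene passed, Mdm2 turned to -0.0400 with median-of-ratios factors and -0.0106 after correction for GC content and length. Sesn1 turned to -0.0565 and -0.0432 there, to -0.0026 without mitochondrial genes and Rn7s, to -0.0065 without the 100 most abundant genes and to -0.0293 after quantile normalisation. Without single libraries, Ccng1, which did not pass, ran from -0.119 to 0.026 at 5 weeks and from -0.0474 to 0.032 at 25 weeks. The count of genes that differed by sex went from 1 to 2 with median-of-ratios factors, without mitochondrial genes and Rn7s, after quantile normalisation and after correction for GC content and length, to 3 without the 100 most abundant genes, and to 1 to 3 without 1 library (3 without WT male 4 of 5 weeks). That of genes that changed with age in WT went from 2 to 4 with only the groups compared in the fit.

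Over all genes, the 3253 calls at 5 weeks became 1553 at a filter of 5 TPM and 2207 to 4749 without 1 library. The 603 at 25 weeks became 343 without a filter, up to 1384 under other scalings and 270 to 983 without 1 library, and the 63 of genotype by age 32 to 163 and 49 to 229. The count of calls in females at 5 weeks, 1648, became 108 with only the groups compared in the fit and 455 to 3865 without 1 library (Col6a2-/- female 2 and female 4). That in males at 5 weeks, 645, became 295 at a filter of 5 TPM, 1371 without mitochondrial genes and Rn7s and 313 to 1003 without 1 library (Col6a2-/- male 1 and male 4), and that in males at 25 weeks, 388, became 133 to 1130 under the alternatives (1130 without Col6a2-/- females 2 and 4 of 5 weeks) and 55 to 816 without 1 library. The 391 that differed by sex became 258 to 885, and 327 to 693 without 1 library (693 without Col6a2-/- female 2 of 5 weeks). The 2536 that changed with age in WT became 1441 to 3718, and 2114 to 3004 without 1 library. In Col6a2-/- mice the 4389 that changed with age became 2263 to 5523, and 3464 to 5506 without 1 library.

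Of 16 same-numbered pairs, 8 deviated together (r over 0.1, range -0.0612 to 0.234), so not every pair did, and the samples were taken to share only a number. Of the 16, 8 correlated best with their own number, where 1 in 4 numbers gives 4, which is a hint from the data and not from the design. With the number as a replicate block, 7 of the 9 genes and 3325 of all genes passed at 5 weeks, 0 and 617 at 25 weeks, and 2 and 56 for genotype by age. Depth limits Bbc3 most, and the tables hold no counts from which a counting error could be taken.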

Other observations

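Other genes of growth control differed by age and sex in ways not described above. In WT mice, 14 of 19 tested proliferation genes fell from 5 to 25 weeks, where 15.3% of all genes fell. Over both genotypes and ages, 9 of the 19 were higher in males than in females, where 1.87% of all genes were, and 10 to 12 of them were under the other scalings. Mki67 and Top2a, both genes of dividing cells, differed by 0.62 each. The CDK inhibitor gene Cdkn1c was also higher in males, by 0.52, and Bcl2, which encodes a survival protein, by 0.19.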
